A study of Mus musculus with 3 samples.

Results

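The 1-colour array labelled RA plus D3V was compared with the array of untreated cells in a study of HoxA9-Meis1 AML cells, a mouse acute myeloid leukaemia line on the C57Bl/6 background, named after Hoxa9 and Meis1, transcription factors of the homeobox class, and taken from whole bone marrow. RA plus D3V stands for retinoic acid and a 1α-hydroxylated vitamin D3, each at 10 µM. The study set this combination, and the compound Pyrydopyrazine A2 at 3.4 µM, against untreated cells, all of them kept for 24 h in SFEM medium. Each of the 3 conditions was measured on 1 array from 50 ng of total RNA that was amplified and labelled with the dye Cy3, so the values below are single measurements that replicates cannot check, and no test between conditions could be run. Genes were taken as measured when both arrays read their brightest probe well above background, which held for 17094 of 34770 genes and transcripts named on the array design. Signals are given relative to the 75th percentile of their own array, which is set to 1, and a gene is called higher or lower where its relative signals differ at least 2-fold.

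The label of this array is in doubt. In the authors' deposited value table the column labelled A2 holds this array, with the same rank at every spot (Spearman 1 over 62976 spots), and the column labelled RA plus D3V holds the array that the scanner file labels A2. The names of the scanner files are used here, as RA/D3V-labelled array and A2-labelled array, and each direction is that of the array and not necessarily of the compounds. Cyp24a1 and Cyp26a1, which degrade vitamin D and retinoic acid and are classical targets of their receptors, were not well above background on the untreated array or on the RA/D3V-labelled array. On the A2-labelled array their relative signals were 67.1 and 4.32. Rarb, a retinoic acid receptor that is itself a target, was not well above background on the untreated, the RA/D3V-labelled or the A2-labelled array.

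Retinoic acid and active vitamin D act through nuclear receptors that pair with retinoid X receptors on DNA, and both drive immature myeloid cells toward granulocytes or monocytes. Hoxa9 and Meis1 together hold myeloid progenitors in a self-renewing state, and leukaemia cells carrying them have the look of early granulocyte and monocyte precursors. Of 15 defining markers of such cells 14 were measured on both arrays, among them the stem and progenitor antigen Cd34 (relative signal 145 untreated, 231 on the RA/D3V-labelled array) and the myeloperoxidase gene Mpo (672 and 226). Meis1 itself was not well above background on any of the 3 arrays, so it does not check the label of the cells.

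Of the 17094 genes and transcripts 1348 were higher (7.89%) and 744 were lower (4.35%) on the RA/D3V-labelled array, with a median log2 difference of -0.02. Counts for each gene list below are to be read beside these shares and were not tested against them. Repeated spots of 1 probe had a median SD of 0.0643 on the log2 scale on the untreated array and 0.0658 on the RA/D3V-labelled array (233 probes each). The only other measure of untreated cells is the control column of the value table, which matched no scanner file (Spearman 0.936 with the untreated array) and whose origin is unknown. It is called the value table control below. It lay at least 2-fold from the untreated array for 188 genes and transcripts. Against the value table control 1153 genes and transcripts were higher (6.75%) and 845 were lower (4.94%), and 962 and 581 passed 2-fold against both. Calls were more frequent among dim genes, with 11.4% higher and 5.64% lower among the 4274 dimmest and 5.01% and 1.64% among the 4274 brightest. Of 309 genes called higher with several measured probes, 290 had every probe on the same side and 167 had every probe past 2-fold. For 138 genes called lower the numbers were 114 and 57.

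**Figure D1:**
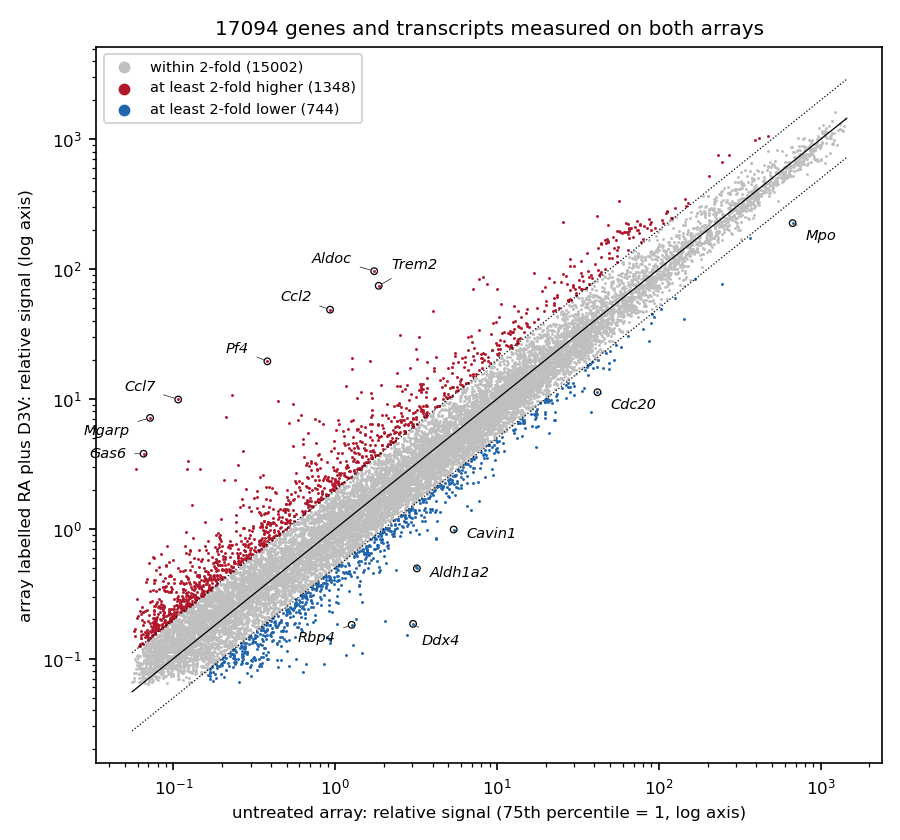
Relative signal of each of 17094 genes and transcripts on the untreated array (horizontal, log axis) and on the RA/D3V-labelled array (vertical, log axis). The solid line marks equal signal and the dotted lines 2-fold; 1348 genes (red) lie above and 744 (blue) below, and the increases reach further from the line than the decreases.

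The 15 largest increases held chemokine genes (Ccl7, Ccl2, Ccl12 and Pf4) and genes known to respond to hypoxia (Mgarp, Aldoc and Ankrd37) beside others such as Cgn, Pigz, Cyp11a1 and Nxpe5. The largest was Mgarp, a mitochondrial protein whose gene is known to respond to hypoxia, with a relative signal of 0.0717 on the untreated array, 0.0705 in the value table control and 7.14 on the RA/D3V-labelled array, a 99.6-fold difference (probe at chr3:51192355-51192414, mm9). Ccl7, a chemokine that draws monocytes, went from 0.107 and 0.0904 in the controls to 9.90, or 92.6-fold (chr11:81860656-81860715). Gas6, the bridging ligand between dying cells and TAM receptor kinases, stood at 0.0653 and 0.107 against 3.78, or 57.9-fold (chr8:13465444-13465503). In each of these genes the controls lay close together and far below the treated array.

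Aldoc, an aldolase of glycolysis, was 55.4-fold higher (1.74 to 96.4). Trem2, a lipid-sensing receptor of macrophages, was 40.0-fold higher (1.86 to 74.3). Pigz, a mannosyltransferase of glycolipid anchors, was 34.3-fold higher (0.213 to 7.29). The other leading genes were Cgn, for the tight junction protein cingulin (log2 difference 5.62), Cyp11a1, the enzyme that opens steroid synthesis (4.57), Ankrd37 (4.43), the transcription factor Maf (4.29) and Nxpe5 (4.07), with Ccl2, Pf4, Ccl12 and Ms4a7 described below. All 15 lay at least 2-fold above the value table control as well. For 1237 genes and transcripts the probe was well above background on the RA/D3V-labelled array only, so that the fold is a bound. The largest bounds were at least 116-fold for Fxyd4, a regulator of the sodium pump, 95.7-fold for Mrc1, the macrophage mannose receptor, 57.7-fold for Ak4, a mitochondrial adenylate kinase, 43.3-fold for the platelet chemokine Ppbp and 27.2-fold for Gipr, the receptor for an intestinal hormone.

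**Figure D2:**
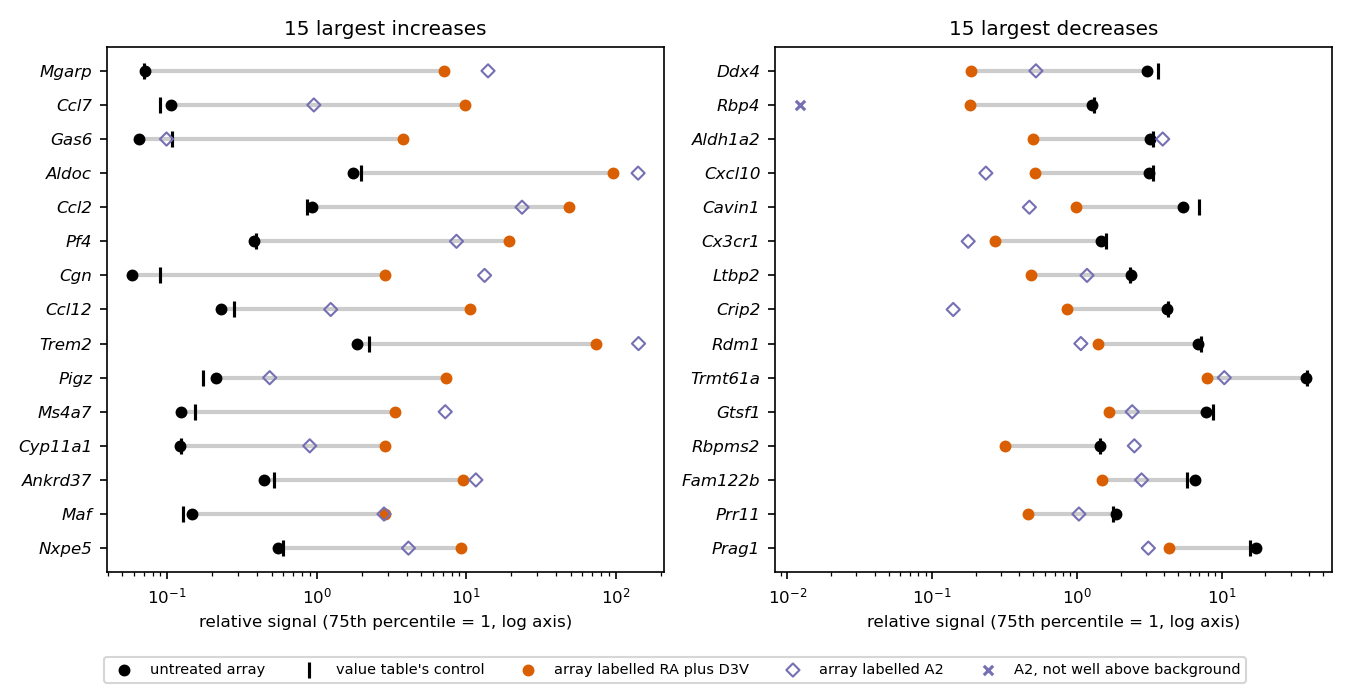
Relative signal (log axis) of the 15 genes with the largest increase (left) and the 15 with the largest decrease (right) on the RA/D3V-labelled array, with both controls and the A2-labelled array. The value table control lies on the untreated side of the RA/D3V-labelled array in every row. The A2-labelled array lies near the untreated array for Gas6 and Aldh1a2 and beyond the RA/D3V-labelled array for Mgarp, Cgn and Crip2.

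Chemokine genes stood out by their position. In the cluster of monocyte attractants on chromosome 11, Ccl2 went from a relative signal of 0.929 to 48.7 (52.4-fold), and Ccl12 from 0.231 to 10.7 (46.3-fold). Their neighbour Ccl8 was well above background on the RA/D3V-labelled array only, at least 12.0-fold higher, whereas Ccl11 and Ccl1 of the same cluster were not detected on either array. In a more distal cluster of chromosome 11, which holds ligands of the receptor Ccr1, Ccl4 (log2 difference 2.38), Ccl6 (1.59), Ccl3 (1.33) and Ccl9 (1.28) were higher, and Ccl5, another ligand of Ccr1, was lower (-1.09, from 4.80 to 2.26). Of all 11 measured CC chemokines 7 were higher and 1 was lower, with a median of 1.33.

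On chromosome 5 the gene of platelet factor 4, Pf4, went from 0.381 to 19.5 (51.2-fold) beside its neighbours Ppbp and Cxcl3, both detected on the RA/D3V-labelled array only (bounds of 43.3-fold and 4.51-fold). The neutrophil attractants Cxcl1 and Cxcl2 further along the same stretch were not higher: Cxcl2 differed by -0.11 and Cxcl1 was detected on the untreated array only, at least 1.59-fold lower on the RA/D3V-labelled array. Pf4 and Ppbp are also platelet genes. Of 12 markers of megakaryocytes and platelets 4 were measured. Summed over the markers well above background on each array, the relative signal was 1.05 on the untreated array and 25.04 on the RA/D3V-labelled array. Pf4 made up 19.5 of the 25.04, and Ppbp entered only that sum. Of the 4 measured, Pf4, Itgb3 (log2 difference 2.86) and the von Willebrand factor gene Vwf (0.187 to 0.702) were higher. Gp1ba, Gp1bb, Gp5, Gp6, Gp9, Itga2b and Tubb1 were not well above background on either array. The part of such cells in these values was not tested. Of 14 measured chemoattractant receptors 4 were higher and 2 were lower, with the complement receptors C5ar1 (1.79) and C3ar1 (1.78) higher and Cx3cr1 (-2.44, from 1.47 to 0.271) and Cxcr3 (-1.81) lower. With normexp background correction, which pulls dim signals together, C5ar1 and Cxcr3 lay within 2-fold.

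Many genes by which macrophages bind and take up dying cells, lipids and complexes were higher. The C1q genes, whose products start the classical complement pathway and coat apoptotic cells, lie side by side on chromosome 4 and were 11.6-fold (C1qc, 0.592 to 6.85), 8.09-fold (C1qb, 0.676 to 5.47) and 7.89-fold higher (C1qa, 0.551 to 4.34). The value table control read 0.548, 0.545 and 0.494 for them, close to the untreated array. Of 14 measured complement genes 8 were higher and none was lower (median 1.23), including properdin, Cfp (2.17), and C3 (1.19).

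Of 13 scavenger and lectin receptor genes measured 5 were higher and none was lower. Marco, which binds bacteria and particles, went from 4.02 to 47.8, and Clec4n, the receptor dectin-2 for fungal mannans, from 25.6 to 232. Stab1 (2.89), Msr1 (2.05) and Cd68 (1.09) were the others, while Cd36, a receptor for oxidised lipids, was detected on the untreated array only, at least 4.37-fold lower. In the Gas6 and efferocytosis list 6 of 12 were higher and none was lower, with a median of 0.92. Beside the ligand Gas6 these were the integrin chain Itgb3 (2.86), thrombospondin Thbs1 (1.66), the TAM receptor Tyro3 (1.44), Itgb5 (1.18) and Lrp1 (1.09). The TAM receptor Mertk was detected on the RA/D3V-labelled array only (at least 17.3-fold higher) and the third TAM receptor, Axl, on the untreated array only (at least 2.97-fold lower).

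In the Ms4a family of tetraspan membrane proteins on chromosome 19, 6 of 8 measured genes were higher and none was lower (median 1.31). They were Ms4a7 (4.76, from 0.123 to 3.33), Ms4a6d (2.75), Ms4a4a (2.30), Ms4a3 (1.31), Ms4a4b (1.31) and Ms4a6c (1.26), whereas Ms4a4c (-0.05) and the B cell gene Ms4a1 (0.18) lay within 2-fold. The high-affinity immunoglobulin receptor Fcgr1 (2.64, and 1.96 against the value table control) and the neonatal receptor Fcgrt (1.55) were the Fc receptors past 2-fold among 8 measured. Of the TREM and CD300 receptors Trem2 (5.32), Cd300lf (2.15), Trem1 (1.32) and Cd33 (1.06) were higher of 14 measured, and the shared adaptor Tyrobp lay within 2-fold (0.68).

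Monocyte genes and neutrophil genes both held members that were higher. Of 20 measured monocyte and macrophage genes 11 were higher and 2 were lower (median 1.19). Adgre1, the antigen F4/80, went from 26.5 to 88.9, the lysozyme genes Lyz1 and Lyz2 differed by 1.85 and 1.82, and Aif1 by 1.84, whereas Cx3cr1 and Cd14 (-1.25, from 8.29 to 3.49) were lower. Against the value table control Cd14 differed by -0.97. Csf1r, the receptor of the main macrophage growth factor, lay within 2-fold (0.59). Of 20 neutrophil genes 6 were higher and 1, Retnlg (-1.24), was lower. The collagenase Mmp8 (1.27 to 20.6), the integrin Itgam (4.22 to 21.0) and the gelatinase Mmp9 (0.423 to 1.91) led them, and the classical secondary granule genes Ltf (0.19), Camp (0.11) and Ngp (0.09) lay within 2-fold. Among primary granule proteins Prss57 (1.45), Ms4a3 (1.31), Ctsc (1.25) and Serpinb1a (1.09) were higher, while Mpo (-1.57) was lower and neutrophil elastase, Elane, differed by -0.96.

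Of 27 measured transcription factors of monocytes and granulocytes 9 were higher and 1 was lower. Maf, which helps maintain macrophage identity, differed by 4.29 (0.146 to 2.86), and Klf4, needed for monocytes, by 2.28 (0.666 to 3.23). The master factors Spi1 (-0.38), Cebpa (0.41), Cebpb (0.09) and Irf8 (-0.03) stayed within 2-fold. Nr4a2 was lower (-1.31), though not with normexp.

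Inflammatory mediators did not move as 1 group. The prostaglandin synthases Ptgs2 (2.98, from 0.120 to 0.945) and Ptgs1 (1.43), the leukotriene enzyme Alox5 (2.72, from 2.42 to 15.9) and the cytokine Il18 (2.49) were higher. Tnf (-0.38), Il1b (0.01) and Il6 (-0.52) lay within 2-fold, and Lif was lower (-1.56, and -2.69 against the value table control, but within 2-fold with normexp). None of 16 NF-kB subunit and feedback genes was higher, and Traf1 (-1.48) and Cd40 (-1.40) were lower. Over all measured genes 7.89% were higher and 4.35% lower, and the small counts in this paragraph were not tested against these shares. Among 25 interferon-stimulated genes Oas2 (2.58), Mx1 (1.77), Ddx58 (1.48) and Oas3 (1.09) were higher and Cxcl10 (-2.63) and Rsad2 (-1.06, within 2-fold with normexp) were lower, with a median of 0.32. Of MHC class II and costimulation genes Cd74 (1.39) and Cd80 (1.25) were higher. H2-DMb2 was lower against the untreated array (-2.04, from 0.303 to 0.0739) but differed by -0.01 against the value table control, so this call rests on the untreated array.

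Genes known to be induced by hypoxia-inducible factors were another group with many members higher. These factors bind the core letters ACGTG in promoters and enhancers and raise glycolysis and mitochondrial turnover. Of 21 measured hypoxia genes outside glycolysis 12 were higher and 1, the carbonic anhydrase Car12 (-1.14), was lower, with a median of 1.04. Beside Mgarp and Ankrd37 they included the collagen hydroxylase P4ha2 (0.268 to 3.96), the mTORC1 inhibitor Ddit4 (8.70 to 76.6), the oxygen sensor Egln3 (3.17 to 24.4) and the mitophagy receptors Bnip3 (9.96 to 70.6) and Bnip3l (5.48 to 22.7). Vegfa (1.04), Hilpda (1.04) and P4ha1 (1.05) lay just past 2-fold, and Hif1a (-0.11) and Epas1 (0.61), which encode the factors, lay within it. Of 22 glycolysis genes 20 differed by more than 0 and 7 were higher, with a median of 0.89. The members differed, since Aldoc (5.79), Slc16a3 (2.47), Pfkl (1.89), Slc2a1 (1.45), Aldoa (1.18), Pfkm (1.07) and Tpi1 (1.07) were higher while Gapdh (0.18) and Pfkfb4 (0.39) were within 2-fold and the neuronal enolase Eno2 was lower (0.573 to 0.286), though within 2-fold with normexp.

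The promoters of the hypoxia and glycolysis lists were read from RefSeq (GRCm38.p6, 250 bases before to 50 after the start, 300 in all). They were searched on both strands for ACGTG, which as CACGT is its reverse and overlaps the E-box CACGTG. It was found in 13 of 21 promoters of the hypoxia list (61.9%) and 10 of 21 of the glycolysis list (47.6%), against 19.7% of 27025 promoters in the table and 26.1% of 9856 promoters of measured genes. Over all genes called higher the share was 24.7%, near that of measured genes. The promoters of Ankrd37 (chr8:45999801-46000100, minus strand) and Aldoc (chr11:78322823-78323122, plus strand) are shown because these genes were among the highest of their lists. Capitals mark the matches.
Ankrd37: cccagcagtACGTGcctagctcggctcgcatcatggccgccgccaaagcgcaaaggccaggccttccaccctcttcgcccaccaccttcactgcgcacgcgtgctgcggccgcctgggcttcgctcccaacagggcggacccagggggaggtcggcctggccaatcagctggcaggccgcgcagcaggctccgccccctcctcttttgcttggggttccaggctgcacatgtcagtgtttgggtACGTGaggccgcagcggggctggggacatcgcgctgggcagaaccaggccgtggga
Aldoc: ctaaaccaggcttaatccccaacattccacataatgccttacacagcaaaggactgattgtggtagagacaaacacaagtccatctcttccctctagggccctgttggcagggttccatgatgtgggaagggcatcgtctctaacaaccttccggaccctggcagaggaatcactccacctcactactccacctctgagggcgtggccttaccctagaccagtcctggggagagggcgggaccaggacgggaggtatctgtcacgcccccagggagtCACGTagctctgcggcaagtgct
Ankrd37 held 2 matches and Aldoc 1, the promoter of Bnip3 held 1 palindrome (CACGTG) that reads as a match on both strands, and those of Egln3 and Mgarp held 1 each. The promoter of Ak4 held none. A match describes the letters only. Both lists were drawn up by known function, so their shares of matches describe the lists and give no support from these arrays.

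**Figure D3:**
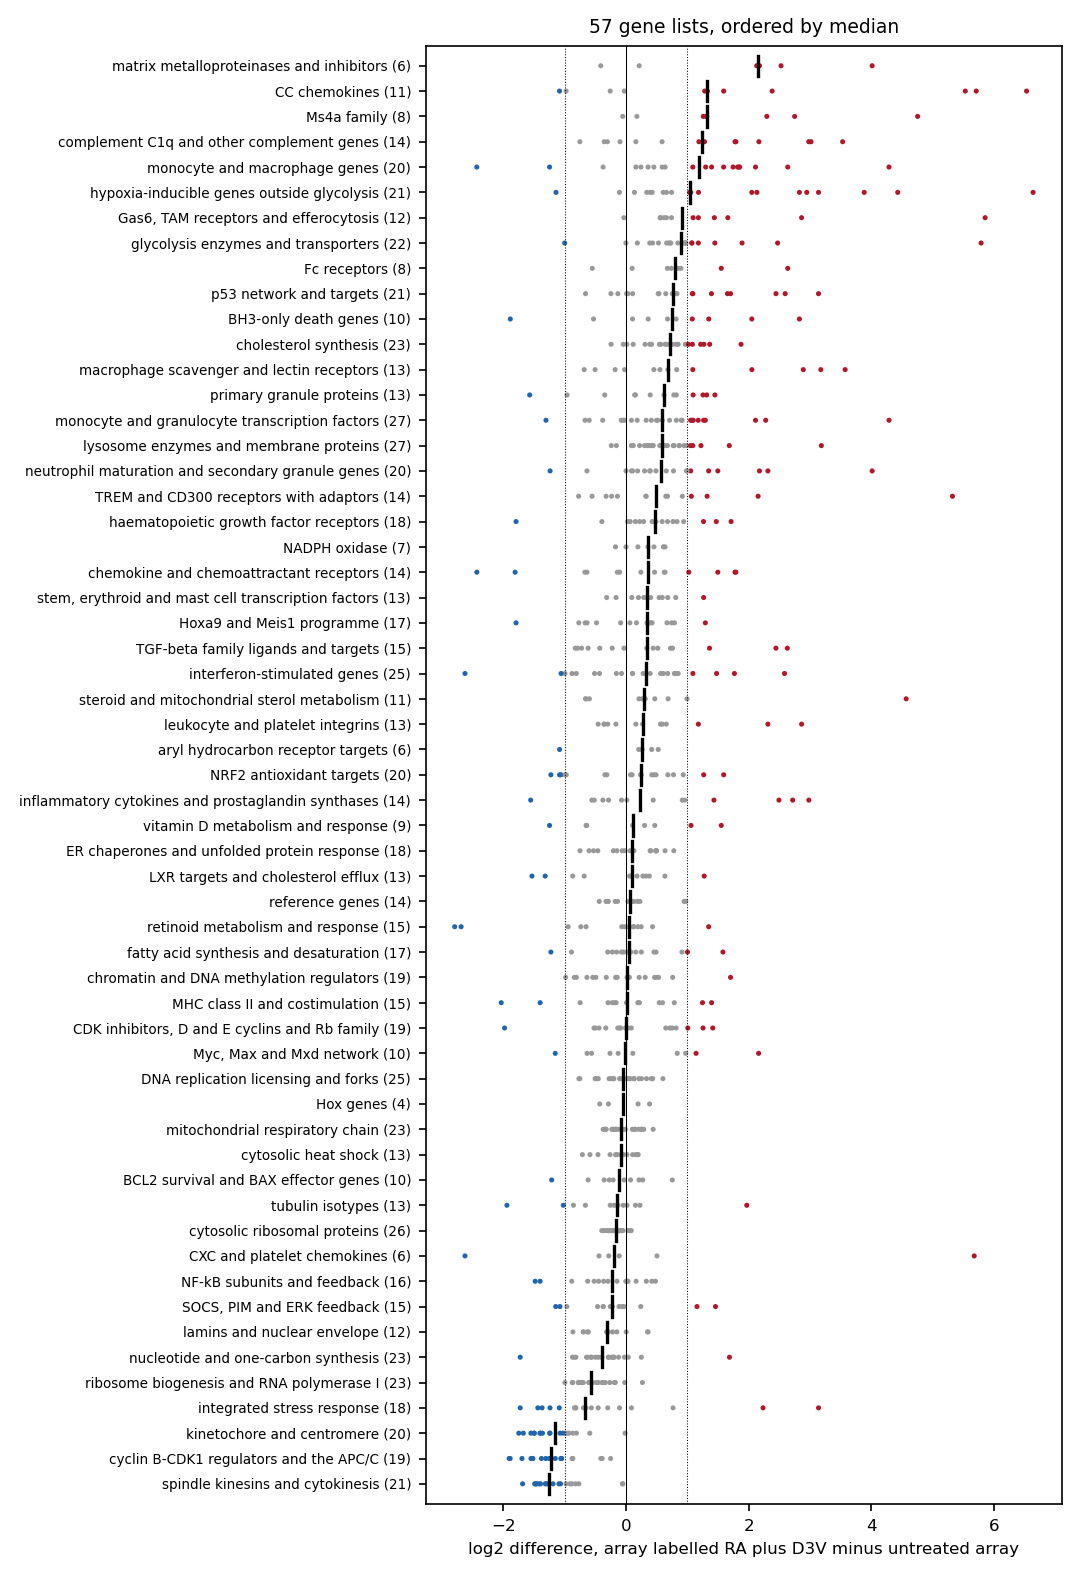
Log2 difference between the RA/D3V-labelled array and the untreated array for the measured members of 57 gene lists (1 point per gene, number measured in brackets), with the median of each list as a black bar and dotted lines at 2-fold. Lists of matrix metalloproteinases, CC chemokines, the Ms4a family and complement have the highest medians, and the lists of mitosis genes have the lowest, at -1.16 to -1.26.

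Mitosis genes were lower while DNA replication genes were not. Of 19 measured regulators of cyclin B and CDK1 and the anaphase-promoting complex 14 were lower and none was higher, with a median of -1.22 against -0.02 over all genes. The phosphatase Cdc25b went from a relative signal of 4.27 to 1.14, the anaphase activator Cdc20 from 41.8 to 11.3, and cyclin A2, Ccna2, from 22.4 to 6.89. The value table control lay near the untreated array for them, with differences of -1.83, -2.04 and -1.65. Of 20 kinetochore and centromere genes 12 were lower, led by the Ndc80 complex subunit Spc24 (-1.75) and by Ska3 (-1.68), and of 21 spindle kinesin and cytokinesis genes 14 were lower, led by Kif23 (-1.69), Kif18a (-1.49, within 2-fold with normexp) and Kif18b (-1.48). No member of these 3 lists was higher. In the same arrays none of 25 genes for DNA replication licensing and forks passed 2-fold in either direction (median -0.05), from the primase Prim1 (-0.77) to the helicase subunit Mcm7 (0.60). The clamp Pcna had relative signals of 44.7 and 43.3.

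**Figure D4:**
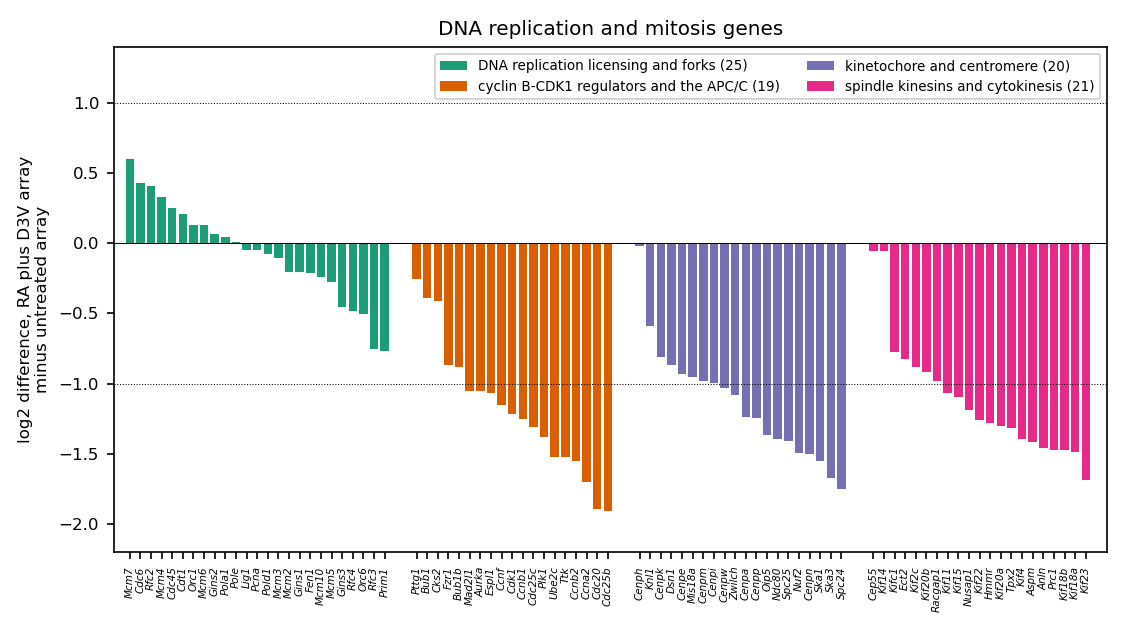
Log2 difference between the RA/D3V-labelled array and the untreated array for each measured member of 4 cell cycle lists, with dotted lines at 2-fold. The 25 replication genes lie between -0.77 and 0.60, and the mitosis genes lie at or below 0, with Cdc25b the lowest at -1.91.

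Mitosis genes share promoter elements, the cell cycle homology region (TTTGAA) and the CCAAT box. TTTGAA, or its reverse TTCAAA, was present in 17 of 19 promoters of the spindle and cytokinesis list (89.5%), 10 of 17 of the cyclin B list (58.8%) and 9 of 18 of the kinetochore list (50.0%), against 12.4% of measured genes and 22.2% of genes called lower. CCAAT was present in 15 of 17 promoters of the cyclin B list (88.2%), 11 of 18 of the kinetochore list (61.1%) and 12 of 19 of the spindle list (63.2%), against 39.3% of measured genes and 44.1% of genes called lower. The promoters of Cdc20 (chr4:118437294-118437593, minus strand), Kif23 (chr9:61946750-61947049, minus strand) and Plk1 (chr7:122159185-122159484, plus strand) are shown as members of the group that was lower, with TTTGAA in capitals. Cyclin B1, Ccnb1 (chr13:100786437-100786736, minus strand), is shown as a member without these letters.
Cdc20: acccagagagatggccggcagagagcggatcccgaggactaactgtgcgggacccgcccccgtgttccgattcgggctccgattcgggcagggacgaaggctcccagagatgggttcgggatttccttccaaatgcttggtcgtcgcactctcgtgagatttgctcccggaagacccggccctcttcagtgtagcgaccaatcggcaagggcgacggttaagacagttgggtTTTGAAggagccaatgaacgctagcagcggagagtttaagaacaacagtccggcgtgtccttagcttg
Kif23: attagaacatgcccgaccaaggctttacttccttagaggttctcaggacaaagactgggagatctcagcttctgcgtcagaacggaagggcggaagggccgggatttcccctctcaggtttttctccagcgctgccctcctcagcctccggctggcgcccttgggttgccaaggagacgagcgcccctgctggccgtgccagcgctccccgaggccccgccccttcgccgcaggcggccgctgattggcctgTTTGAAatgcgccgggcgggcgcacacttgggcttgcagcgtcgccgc
Plk1: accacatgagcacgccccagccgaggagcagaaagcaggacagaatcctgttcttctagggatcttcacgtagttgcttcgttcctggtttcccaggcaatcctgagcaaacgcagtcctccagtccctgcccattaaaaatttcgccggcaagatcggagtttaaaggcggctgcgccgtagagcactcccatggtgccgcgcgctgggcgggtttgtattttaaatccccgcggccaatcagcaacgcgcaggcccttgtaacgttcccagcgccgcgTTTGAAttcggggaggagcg
Ccnb1: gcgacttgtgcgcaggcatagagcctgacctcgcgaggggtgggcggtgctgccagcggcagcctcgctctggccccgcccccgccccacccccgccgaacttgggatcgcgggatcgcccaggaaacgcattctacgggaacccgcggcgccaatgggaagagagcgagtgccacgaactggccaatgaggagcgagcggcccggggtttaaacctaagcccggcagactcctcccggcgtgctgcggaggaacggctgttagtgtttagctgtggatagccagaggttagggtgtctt
Cdc20, Kif23 and Plk1 differed by -1.89, -1.69 and -1.38. Ccnb1, whose window lacks TTTGAA, differed by -1.25. Other forms of the element were not searched for, and its part in these values was not tested.

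Regulators at the G1 boundary differed singly rather than together. The D-type cyclin Ccnd3 went from 80.9 to 215, E2f2 from 3.70 to 8.83 and the retinoblastoma gene Rb1 from 3.21 to 6.44 (within 2-fold with normexp), and the CDK inhibitor gene Cdkn2c was lower, at 1.89 and 0.479. The CDK inhibitor p21, Cdkn1a, had a difference of 0.81 by the brightest of its probes, and the dimmer probes gave 2.35 and 2.68. Of 21 measured genes of the p53 network 8 were higher, none was lower and 18 differed by more than 0, with a median of 0.77. Besides Ddit4 they were Trp53inp1 (1.68 to 10.1), the stress cytokine Gdf15 (0.317 to 1.72), Mdm4 (1.70), Btg2 (1.65), Phlda3 (1.39), Zmat3 (1.09) and the death gene Bbc3 (1.08), whereas Mdm2 (0.52) and Trp53 (-0.66) stayed within 2-fold. Bbc3 differed by 0.83 against the value table control. Among BH3-only genes Bmf (1.35) was higher and Bcl2l15 lower (-1.89, within 2-fold with normexp), and the survival gene Birc5, which is also a mitotic gene, was lower (-1.21). In the Myc network the antagonists Mxd4 (2.16, from 1.69 to 7.57) and Mxd1 (1.14) were higher, Mxd3 was lower (-1.16, within 2-fold with normexp), and Myc differed by -0.64.

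Biosynthetic programmes split by pathway. None of 23 ribosome biogenesis genes passed 2-fold, but 22 of 23 were below 0 (median -0.57), from Nop58 (40.6 to 20.3) to nucleolin, Ncl (111 to 134). The other probe of Ncl lay the opposite way (-0.76), and against the value table control 1 of the 23 genes was lower. The 26 cytosolic ribosomal protein genes had a median of -0.16. The integrated stress response list had 5 of 18 lower, including Mthfd2 (22.9 to 6.92), the asparagine synthetase Asns (49.2 to 19.0), Chac1 (-1.24) and the transcription factor Atf4 (366 to 172), and 2 higher, Ddit4 and Atf3 (0.662 to 3.12). Cholesterol synthesis genes ran the other way, with 6 of 23 higher, 21 of 23 above 0 and a median of 0.71. Tm7sf2 (1.87), Fdps (1.36), Mvd (1.27), Stard4 (1.22), Lss (1.08) and Nsdhl (1.02) passed 2-fold.

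Of 27 lysosome genes 5 were higher and 25 lay above 0 (median 0.58). The legumain gene Lgmn went from 3.30 to 30.0 and cathepsin D, Ctsd, from 73.0 to 234. NRF2 targets differed by member, since the haem-degrading genes Hmox1 (1.59) and Blvrb (1.27) were higher and the redox genes Srxn1 (-1.06), Nqo1 (-1.09, within 2-fold with normexp) and Me1 (-1.23) were lower. The 23 respiratory chain genes (median -0.08) and 14 reference genes (0.06) had no member past 2-fold by the brightest probe. The highest reference gene, Pgk1, lay just within it (0.97), and its other probe, on chromosome X, differed by 1.04.

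Decreases were smaller than increases. The largest was Ddx4, a germ cell RNA helicase, with relative signals of 3.03 on the untreated array, 3.59 in the value table control and 0.185 on the RA/D3V-labelled array, 16.4-fold lower (chr13:113388616-113388675, mm9). Rbp4, the plasma carrier of retinol, went from 1.26 to 0.182 (6.95-fold lower) and Aldh1a2, an enzyme that makes retinoic acid, from 3.20 to 0.495 (6.46-fold lower). Of the 15 measured genes of retinoid metabolism and response these were the 2 lower ones, and Dhrs3, an enzyme that reduces retinal, was higher (9.36 to 23.8). The median of the 15 measured retinoid genes was 0.04 against the untreated array. The caveola protein gene Cavin1 went from 5.40 to 0.986 and the tRNA methyltransferase gene Trmt61a from 38.3 to 7.93. Gtsf1, a piRNA pathway gene of the germ line like Ddx4, went from 7.77 to 1.65. The other leading decreases were Cxcl10 (-2.63), Cx3cr1 (-2.44), Ltbp2 (-2.31), Crip2 (-2.31), Rdm1 (-2.30), Rbpms2 (-2.18), Fam122b (-2.13), Prr11 (-2.01) and Prag1 (-2.01), and the other probe of Fam122b differed by -0.42. All 15 were higher in the value table control than on the RA/D3V-labelled array, by 1.85 or more on the log2 scale.

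For 927 genes and transcripts the probe was well above background on the untreated array only. The largest bounds among them were at least 14.3-fold for Eda, 13.8-fold for Hoxa13, 13.3-fold for the water channel Aqp3, 12.4-fold for Prl7d1 and 12.3-fold for Il22ra1. In the value table control Aqp3 had a relative signal of 0.830, near the 0.783 of the untreated array. Eda (0.642 and 0.0240), Hoxa13 (0.713 and 0.0186), Prl7d1 (0.557 and 0.0118) and Il22ra1 (0.552 and 0.0627) were high on the untreated array alone. Of these bounds that of Aqp3 therefore has both controls on the same side.

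Genes of the leukaemia programme lay within 2-fold about as often as all measured genes. Hoxa9 had relative signals of 20.3 and 26.4, and its other probe lay the opposite way (-0.33). The controls lay apart on that other probe. Its log2 relative signal was 2.29 on the untreated array, 3.40 in the value table control and 1.96 on the RA/D3V-labelled array. Of 17 measured genes of the Hoxa9 and Meis1 programme 15 were within 2-fold (over all measured genes 7.89% were higher and 4.35% lower), among them Kit (0.42), Myb (0.35) and Cd34 (0.67), with Id2 higher (1.29) and the growth factor receptor Flt3 lower (-1.80, from 0.745 to 0.215). Markers of other bone marrow cells were read beside these values. Of 8 measured T and NK cell markers none was higher and 3, Cd2 (-1.89), Cd3d (-1.55) and Lck (-1.19), were lower, and the summed relative signal of the list went from 24.1 to 16.7. Of 8 erythroid markers 2 were lower, and the sum went from 40.9 to 22.6. The summed signal of B cell markers was 19.4 and 13.4, and that of eosinophil, basophil and mast cell markers 5.90 and 5.74. That of dendritic cell markers was 196 and 253, and that of stromal and endothelial markers 8.93 and 13.5. The median log2 differences of these lists were 0.13, 0.19, -0.38 and 0.74, so only the last had the direction of its sum. Of 6 measured B cell markers 1 was higher and none was lower. Most of the untreated B cell sum was Cd79b (17.9), which differed by -0.64. Of 8 measured dendritic cell markers none was higher and 2 were lower. The part of other cells in the results was not tested, and on bulk RNA fewer cells of a type and less RNA per cell cannot be told apart.

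The A2-labelled array shares the untreated array as its control, so its own values are given beside those above and its signals were also compared directly. Against that control 7.98% of its 17085 measured genes and transcripts were higher and 5.79% were lower. Of 17436 genes and transcripts measured on both treated arrays 719 had a signal at least 2-fold higher on the RA/D3V-labelled array (4.12%) and 661 were lower (3.79%). Gas6 had a relative signal of 3.78 on the RA/D3V-labelled array and 0.0992 on the A2-labelled array. The calcium-binding protein gene S100a4 had 176 and 6.52, Gpr162 had 2.37 and 0.0931, and versican, Vcan, had 5.64 and 0.244. These were followed by Ffar2, a receptor for short-chain fatty acids (17.0 and 0.736), and the interferon-induced membrane protein gene Ifitm1 (7.47 and 0.390). Each lay above both controls on the RA/D3V-labelled array.

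Among genes called on the RA/D3V-labelled array, the largest differences in favour of the A2-labelled array were Gdf15 (1.72 against 127), Ccl6 (5.95 against 299), the creatine kinase Ckb (1.75 against 42.5), the adhesion receptor Adgre5 (5.45 against 128), Gpnmb (22.5 against 325) and Spink2 (1.71 against 20.7). In the groups above, the hypoxia list had a median of 1.04 on the RA/D3V-labelled array and 1.64 on the A2-labelled one, the cyclin B list -1.22 and -0.80, the p53 list 0.77 and -0.20, and the Ms4a list 1.31 and 0.01. Vdr, the vitamin D receptor, was at 0.803 on the RA/D3V-labelled array, 1.25 on the untreated array and 17.0 on the A2-labelled array.

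Names of large intergenic noncoding RNA regions were compared with protein-coding genes as a class of transcript. Of 1939 such regions measured 200 were higher (10.3%) and 76 were lower, with a median of 0.29, against 774 and 555 of 11770 protein-coding genes and a median of -0.08. The regions were dim, and among the 4274 dimmest of all genes and transcripts their median was 0.34 and that of protein-coding genes 0.11. Against the value table control the median of the regions was 0.03, and that control itself lay 0.21 above the untreated array for them. Quantile normalization of the scanner arrays gave a median of 0.16 for the regions. The shift of the class therefore depends on the control and the scaling used, and its source was not tested.

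Probes with long runs of alternating G and T were left out of all values above because they read lower on both treated arrays. The median difference on the RA/D3V-labelled array was -0.09 for probes whose longest run had 7 bases (233 probes, 7.30% lower), -0.15 at 8 bases (84 probes, 14.3%), -0.94 at 9 (34 probes, 47.1%), -1.05 at 10 (34 probes, 50.0%) and -1.21 at 11 or more (139 probes, 69.1%), against 4.21% lower for all shorter than 8. Of 291 measured probes with a run of at least 8 bases 141 were lower, and against the value table control their median was -0.71. Against the untreated array the median of the 291 probes was -0.96, and 5 of them were higher. Stretches of 28 bases are shown from 4 probes among those with the largest decreases, with the run in capitals. These 4 differed by -3.79 to -2.61 and do not represent all 291. Whether the run accounts for their decreases was not tested.
Rdh1: tgcataccaTGTGTGTGTGTtcttttat
Magef1: GTGTGTGTGTaagcttatttgatgccga
Golt1a: taagGTGTGTGTGTGTatatgatctatg
Blcap: aatgtgtgtTGTGTGTGTGTttacatac
Their relative signals on the untreated array, in the value table control and on the RA/D3V-labelled array were 1.28, 0.828 and 0.0921 for Rdh1, a retinol dehydrogenase, 17.7, 9.95 and 1.64 for Magef1, 10.9, 6.11 and 1.05 for Golt1a, and 29.1, 16.9 and 4.75 for Blcap. On the A2-labelled array they were 0.0838, 1.70, 1.38 and 4.80, close to the RA/D3V-labelled array. In each the value table control lay between. The median of the 84 probes at 8 bases differs little from those of 7 bases, and the step comes between 8 and 9.

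**Figure D5:**
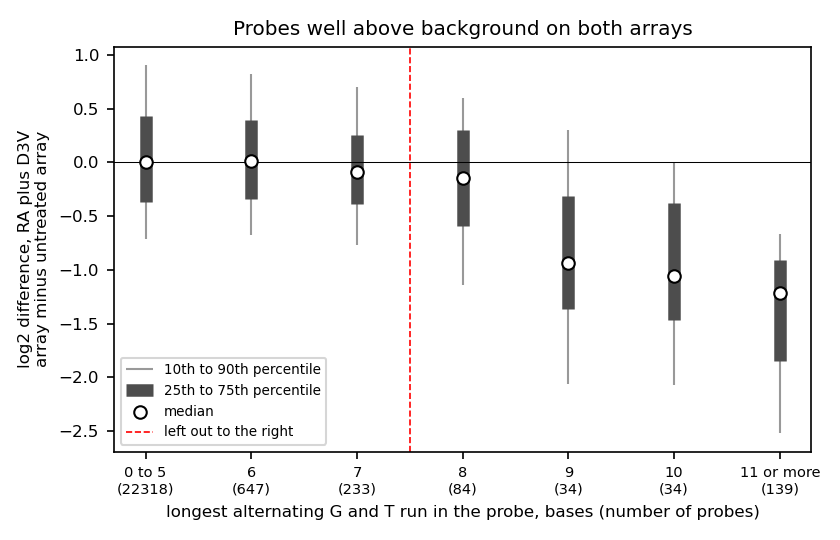
Log2 difference between the RA/D3V-labelled array and the untreated array by the longest run of alternating G and T in the probe (number of probes in brackets), with the median as a circle and percentile ranges as bars. Medians stay near 0 up to 8 bases and lie at -0.94 to -1.21 from 9 bases on; probes to the right of the dashed line were left out.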

How the data were processed

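Per the labels, RNA of 1 sample per condition was hybridized to an Agilent mouse array. In the deposited scanner files each spot has an intensity, read with Agilent Feature Extraction 11.5.1.1, with background and spatial trend subtracted and no scaling between arrays, per the file headers. All 3 arrays lay on 1 slide in 1 scan. Probe positions are in mm9, per the file headers. The authors' deposited value table holds quantile-normalized intensity. Control spots, 396 uneven or outlying spots and 420 probes with a run of alternating G and T of 8 or more bases were left out, which kept 55237 probes. Each array was scaled by its 75th percentile of processed signal before log2 was taken, and the brightest probe stood for a gene. Genes were named by accession (27416 probes), symbol (3379) or synonym (321) from a RefSeq table (GRCm38.p6), and 24121 probes kept the name in the file. No exon or UTR is given, since the builds differ.

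A bound is the signal on 1 array divided by the dimmest signal well above background on the other array, or by the probe's own where that is larger. The 57 gene lists and 8 marker lists, the members and the rules were chosen with earlier results of these data known. Named genes were the 15 largest increases and 15 largest decreases and 6 largest differences each way from the A2-labelled array among brighter RefSeq genes, the 5 largest bounds each way (taken over all RefSeq genes, with no limit on signal), up to 3 highest and 3 lowest members of each list, and the fixed genes Cd14, Cdkn1a, Csf1r, Cyp24a1, Cyp26a1, Hoxa9, Itgam, Kit, Meis1, Myc, Rarb and Vdr. Other members were named after their values were seen. The number of arrays limits the precision. Python 3.11.15, pandas 2.3.3, R 4.3.3 and limma 3.58.1 (normexp only) were used, and the steps were tested on simulated data.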

Additional observations from a re-analysis of the deposited data

Results flagged for a closer look

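For 9 of the named genes the RA/D3V-labelled array and the A2-labelled array both lay at least 2-fold from the untreated array in opposite directions. Both differences share the untreated array, and the difference between them was not tested. On the RA/D3V-labelled array the log2 difference was 3.52 for Gpr162 and -1.15 on the A2-labelled one, 2.35 and -2.19 for versican (Vcan), 1.75 for S100a4, whose relative signal on the A2-labelled one was 6.52 against 52.2 untreated, 1.5 and -2.54 for the neutrophil chemokine receptor Cxcr2, and 1.69 and -1.31 for Cad, the enzyme that starts pyrimidine synthesis. The reverse order held for the adhesion receptor Adgre5 (-1.94 and 2.62), the apolipoprotein Apoc2 (-1.54 and 1.41), Spink2 (-1.06 and 2.54) and the beta tubulin Tubb6 (-1.02 and 1.51).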

How the results depend on the processing

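The main numbers were 1348 genes and transcripts higher and 744 lower of 17094. Normexp background correction (744 higher, 417 lower), a threshold of 1.5-fold (3063 and 2516) and one of 3-fold (445 and 129) moved them by more than 1.5 times. So did the brighter genes alone (723 higher and 391 lower) and no filter on dim probes (4513 and 1918, with the median of all genes at 0.19). These 2 settings tested other numbers of genes, 10699 and 34597, so their counts also reflect how many were tested. Quantile normalization gave 1210 and 885, the authors' deposited values gave 1177 and 814, the value table control (an alternative chosen after seeing the data) gave 1153 and 845, and keeping the probes with G and T runs gave 1346 and 873. The share of calls that were higher was 64.4% and ranged from 54.9% (1.5-fold) to 77.5% (3-fold). The reversed result was H2-DMb2 in the value table, at 0.0939. Of 168 named genes past 2-fold, all 168 kept their sign under normexp and 146 their call (lost by Acacb, Bcl2l15, C5ar1, Cd22, Cxcr3, Cyp2r1, Egr1, Eno2, H2-DMb2, Hbb-b1, Hbb-b2, Kif18a, Lepr, Lif, Mxd3, Nqo1, Nr4a2, Pck2, Rb1, Rsad2, Socs2 and Tubb3), and 163 kept the call against the value table control, where Acacb, Cd14, H2-DMb2, Lepr and Socs2 lost it. Signal over background limits what is measured, since 46.0% of spots on the untreated array and 46.8% on the RA/D3V-labelled array were well above background. No replicate could be left out with 1 array per condition. No paired analysis was possible because each condition has 1 array.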
